A study of Auxenochlorella pyrenoidosa with 12 samples.

Results

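The 300 contigs with the highest mean level were followed through a dose series of potassium peroxymonosulfate, a water-treatment oxidant, in Auxenochlorella pyrenoidosa, a green alga also named Chlorella pyrenoidosa, sampled as whole cells. A contig is an assembled transcript sequence, and its level is given in FPKM, fragments scaled by contig length and by the size of the library. The 29140 contigs of the deposited table were ranked by mean FPKM over 12 libraries, after 1294 contigs with over 50% of their summed FPKM in 1 library had been set aside, and the first 300 were kept. The members were thus chosen by their mean FPKM, and their levels and order are descriptions with no test. The contig at rank 300 had a mean of 227 FPKM and the contig at rank 301 a mean of 226 FPKM. Each of 4 groups had 3 libraries: a control that was not exposed, and cultures exposed at 3 doses given as multiples of the EC50, the concentration with a median effect: 0.1 EC50 (1.70 mg/L), 0.2 EC50 (3.40 mg/L) and 0.5 EC50 (8.49 mg/L). Cultures in the series ran over 12 days, and the labels do not give the day on which RNA was taken. All groups were the same alga with no other agent or genotype named in the labels. The labels do not say whether replicate libraries stem from separate cultures. The p-values therefore reflect no more than the spread between libraries, which may be technical.

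In growing green algae the most abundant messenger RNAs commonly encode light-harvesting proteins, the small subunit of Rubisco (the enzyme that fixes carbon dioxide), ribosomal proteins and histones. Ribosomal RNA that remains in a library can also stand among its most abundant sequences. Peroxymonosulfate oxidizes cell components, and algae answer oxidants with enzymes that remove reactive oxygen species and with chaperones that refold damaged proteins. The table does not pair contigs with gene names, so no contig is given a role here. Contigs are named by identifier or by their rank in mean FPKM.

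The summed FPKM of a library ranged from 503295 to 561291, and depth in reads is unknown. The second control library, the second at 0.2 EC50 and the replicates 2 and 3 at 0.1 EC50, 4 in all, stood apart in their low values. When log2 ratios of values between 0.01 and 1 FPKM to control replicate 1 within 0.5 of 0 were sorted into bins 0.02 wide, the fullest bin held 3.98% to 5.73% of contigs in these 4 libraries and 7.57% to 18.7% in the others. The cut between 5.73% and 7.57% was a choice, since the others were themselves widely spread. Control replicate 1 was the only reference. Each count of called contigs against control or between doses is therefore also given without these 4 libraries, which leaves a lone library at 0.1 EC50 that is assumed to vary like the other groups.

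The 3 most abundant contigs kept their order in every library. TRINITY_DN8502_c5_g1_i1_1, at rank 1, had 44817, 40649.6 and 44436 FPKM in control replicates 1 to 3 and 46544, 54770.3 and 49019 FPKM at 0.1 EC50. It had 43000.2, 52751 and 40797 FPKM at 0.2 EC50 and 40699.6, 44508 and 47877 FPKM at 0.5 EC50. The 3 libraries at 0.1 EC50 lay above the 3 controls, while the values at 0.2 and 0.5 EC50 overlapped those of the controls. The log2 difference at 0.1 EC50 was 0.21 ± 0.109 (SE) and was not called (limma, adjusted p = 0.287). At the higher doses it was 0.06 (adjusted p = 0.789) and 0.03 (adjusted p = 0.872).

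TRINITY_DN7267_c4_g1_i1_1, at rank 2, had mean levels (± SD, n = 3) of 21745 ± 1598 FPKM without exposure, 24666 ± 1447 FPKM at 0.1 EC50, 24113 ± 1752 FPKM at 0.2 EC50 and 24515 ± 1150.2 FPKM at 0.5 EC50. Its values at 0.1 and at 0.5 EC50 lay above all controls, and none of the 3 differences from control was called in limma's test (adjusted p = 0.219, 0.325 and 0.2 from the lowest dose to the highest). TRINITY_DN63_c0_g2_i1_1, at rank 3, had 14524 ± 367 FPKM without exposure, 15378 ± 660.1 FPKM at 0.1 EC50, 13804 ± 1453 FPKM at 0.2 EC50 and 13353 ± 789 FPKM at 0.5 EC50 (SD, n = 3). It was not called against control at any dose in limma's test (adjusted p = 0.63, 0.647 and 0.368 in the same order). These 3 contigs held the first 3 places, in the same order, in 12 of 12 libraries. The first 5 contigs were the same in 11 libraries and stood in the same order in 10. Below them the level dropped to a mean of 5490.3 FPKM at rank 4, 3259 at rank 10, 1337 at rank 50, 805 at rank 100 and 391 at rank 200.

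**Figure D1:**
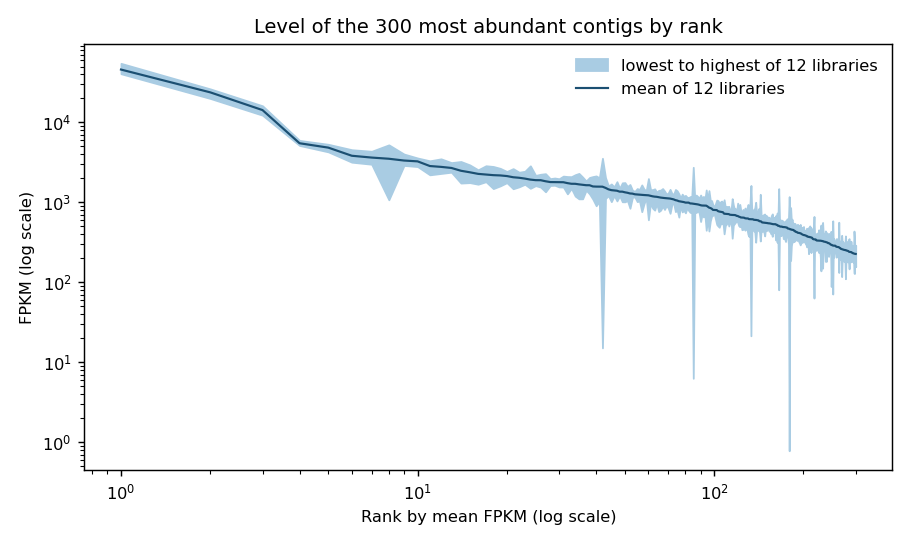
FPKM of the 300 contigs against their rank by mean FPKM, both on log scales; the line is the mean of 12 libraries and the band spans the lowest to the highest library. Ranks 1 to 3 stand above the rest, and narrow spikes mark contigs whose level varied far more than that of their neighbours, down to 0.785 FPKM at rank 179.

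At rank 4 stood the contig with the smallest range of the 300. Its highest library was 1.16 times its lowest, with 5642 ± 124 FPKM without exposure, 5713 ± 209 FPKM at 0.1 EC50, 5189 ± 59.3 FPKM at 0.2 EC50 and 5417 ± 90.6 FPKM at 0.5 EC50 (SD, n = 3). The contigs at ranks 6 and 7, singled out after their values were seen, varied together between libraries of the same group. At rank 6 the values were 4484, 3198 and 4019.9 FPKM at 0.1 EC50 and 4559, 3398 and 3184 FPKM at 0.5 EC50. At rank 7 they were 4006, 3158 and 3528 FPKM at 0.1 EC50 and 4300.3, 3429 and 3001 FPKM at 0.5 EC50. In both groups replicate 1 was the highest library for both contigs. At rank 8 a contig stood at 1079 FPKM in control replicate 2 against 2937 and 3609 FPKM in the other controls, and its highest value was 5243 FPKM in 0.2 EC50 replicate 2. No contig of ranks 1 to 10 was called in any of the comparisons between groups given below.

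Over the 300 contigs, the highest library was a median of 1.58 times the lowest. This ratio was under 1.5 for 114 contigs and under 2 for 254, while 24 lay between 2 and 3, 22 at 3 or more and 6 of these at 10 or more. None of the 300 was listed at 0 in any library. Their median within-group SD was 0.17 on the log2(FPKM + 1) scale, against 0.249 over all 16732 tested contigs. By rank the median SD was 0.123 for ranks 1 to 10, 0.193 for ranks 11 to 50, 0.16 for ranks 51 to 100, 0.171 for ranks 101 to 200 and 0.174 for ranks 201 to 300. Membership in the most abundant 300 was also shared by most libraries. Each library's own first 300, without the contigs set aside, contained between 275 and 288 of the 300, and 244 contigs stood in the first 300 of all 12 libraries.

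The 300 contigs carried most of the summed FPKM of every library. They held 61.4%, 62.0% and 60.6% of it in control replicates 1 to 3, 62.7%, 66.0% and 63.0% at 0.1 EC50, 60.2%, 65.2% and 60.2% at 0.2 EC50, and 58.0%, 59.4% and 60.6% at 0.5 EC50. All 3 libraries at 0.1 EC50 lay above the controls, and those at 0.5 EC50 lay below them except replicate 3, which lay level with control replicate 3. At 0.2 EC50 replicate 2 lay above the controls and the other two libraries below them. The mean shares were 61.3% ± 0.683 without exposure, 63.9% ± 1.81 for 0.1 EC50, 61.8% ± 2.87 for 0.2 EC50 and 59.4% ± 1.30 for 0.5 EC50 (SD, n = 3). No p-value is given for these shares, because the contigs were chosen for their level.

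The highest shares, 66.0% and 65.2%, belonged to 0.1 EC50 replicate 2 and 0.2 EC50 replicate 2, which are among the libraries that stood apart in their low values. Replicate 1 at 0.1 EC50, which is not among them, also lay above all controls. Without replicate 2 the mean share was 62.8% at 0.1 EC50 and 60.2% at 0.2 EC50. At 0.5 EC50 the mean share was 60.0% without replicate 1. The part of the low-value steps in the shares was not tested.

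The share depends on the 300 contigs and on all others together. The summed FPKM of the 300 contigs was 321460.3 ± 9501 without exposure and 319449.5 ± 23241 for 0.5 EC50, while that of the other 28840 contigs was 202764 ± 6852 and 218207 ± 4647 (SD, n = 3). For the others, the lowest library at 0.5 EC50 (212841) lay above the highest control (209708). At 0.1 EC50 the sum of the 300 was 339329.8 ± 22394 and that of the others 191597 ± 3155 (SD, n = 3), with its highest library (194544) below the lowest control (196008). Contigs that reached 1 FPKM moved in number with these sums, with 16983 ± 1129.8 in the controls, 15735 ± 996 for 0.1 EC50 and 18350.3 ± 170 for 0.5 EC50 (SD, n = 3). Depth and the breadth of transcription cannot be told apart from these values, nor can fewer cells of a type and less RNA per cell.

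**Figure D2:**
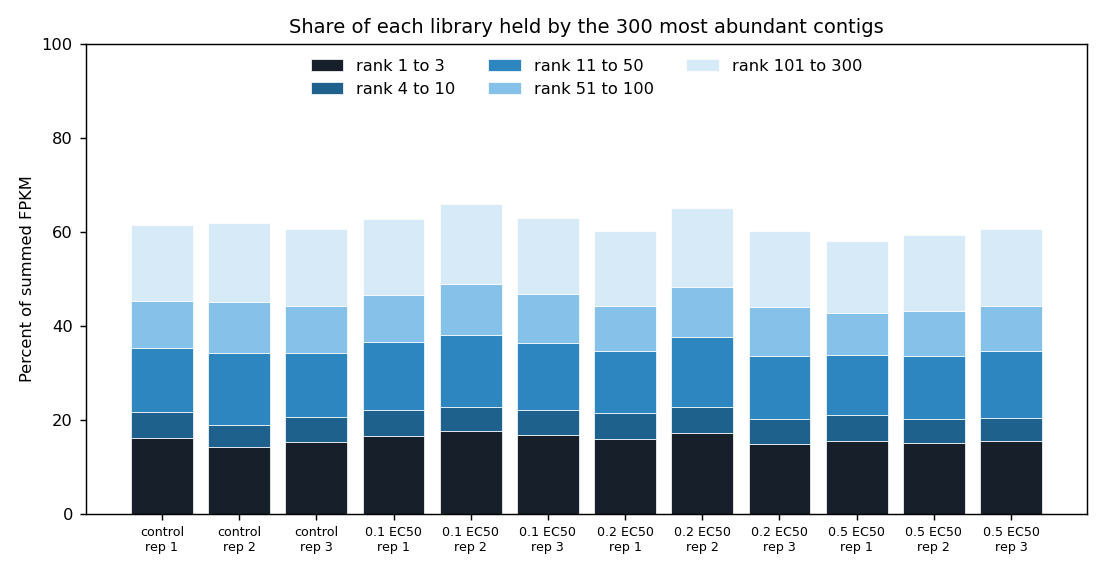
Percent of the summed FPKM of each of the 12 libraries held by the 300 contigs, stacked by bands of rank, with libraries in order of dose. The full bars reach from 58.0% in 0.5 EC50 replicate 1 to 66.0% in 0.1 EC50 replicate 2, and the 3 contigs at the base hold 14.1% to 17.6%.

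Within the 300, the bands of rank took similar parts in all libraries. Ranks 1 to 10 held between 19.0% and 22.8% of a library, ranks 11 to 50 between 13.0% and 15.2%, ranks 51 to 100 between 8.76% and 10.9%, ranks 101 to 200 between 10.1% and 11.4%, and ranks 201 to 300 between 5.31% and 5.76%. By mean FPKM, 2 contigs reached 10% of the summed level, 19 reached 25% and 137 reached 50%. Libraries differed in how many of the 300 peaked in them. In 0.5 EC50 replicate 1, 151 of the 300 contigs had their lowest value of the 12 libraries, against 1 to 35 in the others. The highest value fell in 0.1 EC50 replicate 2 for 72 contigs, in 0.2 EC50 replicate 2 for 61, in 0.5 EC50 replicate 3 for 46 and in control replicate 2 for 38. By group means, 128 contigs were highest at 0.1 EC50, 68 in the controls, 64 at 0.5 EC50 and 40 at 0.2 EC50, and 147 were lowest at 0.5 EC50.

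Identifiers follow the pattern of the Trinity assembler, in which contigs that share the part up to the letter g and its number are grouped as a Trinity gene. The 300 contigs came from 296 Trinity genes, and 4 of these gave 2 contigs each. For 171 of the 300 (57.0%, against 53.7% of all contigs in the table), other contigs of the same Trinity gene were present, and these members held a median of 97.9% of the summed FPKM of their gene. Only 4 of the 171 held under 50%. The last number of the name, which the labels do not explain, was 1, 2, 3 and 4 in 65, 55, 86 and 94 of the 300 contigs. In percent these are 21.7, 18.3, 28.7 and 31.3, close to the 22.5, 17.4, 30.4 and 29.7 of all tested contigs.

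Against control, differences were tested on log2(FPKM + 1) with limma, which fits a linear model to each contig and shares the estimate of the spread among contigs. The fit held the 16732 contigs that averaged 1 FPKM or more, and a contig was called at a Benjamini-Hochberg adjusted p under 0.05. All 300 contigs were in the test, and the ranking had used no difference between groups. All comparisons with control share the same 3 control libraries, so their values are given side by side and no overlap between them is counted.

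At 0.5 EC50, 22 of the 300 contigs were called (7.33%), 11 higher and 11 lower. Among all tested contigs 9.54% were called, 7.09% higher and 2.45% lower. The median log2 difference of the 300 was -0.08, with 196 of them below 0, while the median of all tested contigs was 0.16. Without 0.5 EC50 replicate 1, in which 151 of the 300 had their lowest value, these medians were 0.01 and 0.16. Values did not overlap between 0.5 EC50 and control for 70 of the 300 contigs, or 23.3%, where all tested contigs gave 34.1%. The called contigs had a median absolute log2 difference of 0.60, and only 1 rose and 1 fell by 2-fold or more.

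TRINITY_DN855_c0_g1_i3_4, at rank 232, rose most among the called contigs. It had 176, 151 and 189 FPKM in the controls and 561, 502 and 440 FPKM at 0.5 EC50, so that every exposed library lay at more than 2-fold the highest control. The log2 difference was 1.53 ± 0.181 (SE, limma, adjusted p = 0.00121). It had 312, 224 and 221 FPKM at 0.1 EC50, which was not called (log2 difference 0.54, limma, adjusted p = 0.0931) except after median-of-ratios scaling (0.69, adjusted p = 0.0428). Its 482, 358 and 316 FPKM at 0.2 EC50 gave a log2 difference of 1.14 (adjusted p = 0.00372), so its group means followed the order of the doses. Replicate 1 was the highest library at each dose.

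TRINITY_DN14846_c0_g1_i1_4, at rank 296, rose from 253, 153 and 213 FPKM in the controls to 438, 379 and 291 FPKM at 0.5 EC50. The log2 difference was 0.84 ± 0.212 (SE, limma, adjusted p = 0.0337). At the lower doses it stood at 189 ± 40.2 FPKM (0.1 EC50) and 149 ± 15.2 FPKM (0.2 EC50; SD, n = 3), and neither value was called. The call at 0.5 EC50 ended without control replicate 2 (log2 difference 0.65) or 3 (0.88) and without 0.5 EC50 replicate 1 (0.71) or 2 (0.82). It also ended under median-of-ratios scaling (0.68), an equal total (0.81), quantile normalization (0.84), a fit of these 2 groups only (0.84) and without the 4 libraries that stood apart (0.65).

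TRINITY_DN1638_c0_g1_i2_3, at rank 181, fell most. It had 561, 565 and 521 FPKM in the controls and 207, 188 and 219 FPKM at 0.5 EC50 (log2 difference -1.42 ± 0.202, SE, limma, adjusted p = 0.00359). At 0.1 EC50 it had 451, 514 and 536 FPKM, and at 0.2 EC50 470, 860 and 451 FPKM, and the adjusted p against control was 0.752 and 0.926. TRINITY_DN1888_c0_g2_i1_4, at rank 60, had 1285, 1330.1 and 1237 FPKM in the controls and 745, 606 and 669 FPKM at 0.5 EC50 (log2 difference -0.94 ± 0.132, SE, limma, adjusted p = 0.00344). At 0.1 EC50 it stood higher than every control, at 1339.5 to 1985 FPKM, without a call (log2 difference 0.36, adjusted p = 0.117) except after median-of-ratios scaling (0.52, adjusted p = 0.0402).

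Among the other called contigs, the one at rank 24 was the most abundant. It rose from 1501, 1796 and 1609 FPKM in the controls to 2104, 2768 and 2866 FPKM at 0.5 EC50 (log2 difference 0.65, limma, adjusted p = 0.0118), and median-of-ratios scaling ended this call (0.48, adjusted p = 0.097). The contigs at ranks 269 and 277, singled out after their values were seen, had near-equal levels in every group. They fell from 297 to 161 FPKM and from 282 to 153 FPKM in the mean (log2 differences -0.91 and -0.90, limma, adjusted p = 0.0172 and 0.0247). By rank, 0 calls fell in ranks 1 to 10, 1 in ranks 11 to 50, 5 in ranks 51 to 100, 5 in ranks 101 to 200 and 11 in ranks 201 to 300.

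The split into 11 higher and 11 lower turned on the scaling of the libraries. After median-of-ratios scaling 2 were higher and 15 lower, and the splits were, with an equal total in every library, 8 and 15 and, after quantile normalization, 18 and 15. In the same order these scalings called 7.10%, 6.71% and 8.79% of all contigs. Median-of-ratios scaling shifted the median over all contigs from 0.16 to 0.03 on the log2 scale. The median of the 300 lay below that of all contigs by -0.23 as deposited, -0.27 after median-of-ratios scaling, -0.24 with equal totals and -0.02 after quantile normalization. Quantile normalization gives every library the same distribution of values, so it leaves little room for such an offset of the most abundant contigs. As background to the totals that follow, 3.47% of all contigs were called without control replicate 2 and 4.56% without control replicate 3. Without 0.5 EC50 replicate 2 the figure was 2.66%, against 9.54% in the full fit. The total was 8 without the 4 libraries that stood apart (3.80% of all contigs called) and 14 in a fit of these 2 groups only (5.66%), and without control replicate 2, control replicate 3 or 0.5 EC50 replicate 2 it was 11, 13 and 12.

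**Figure D3:**
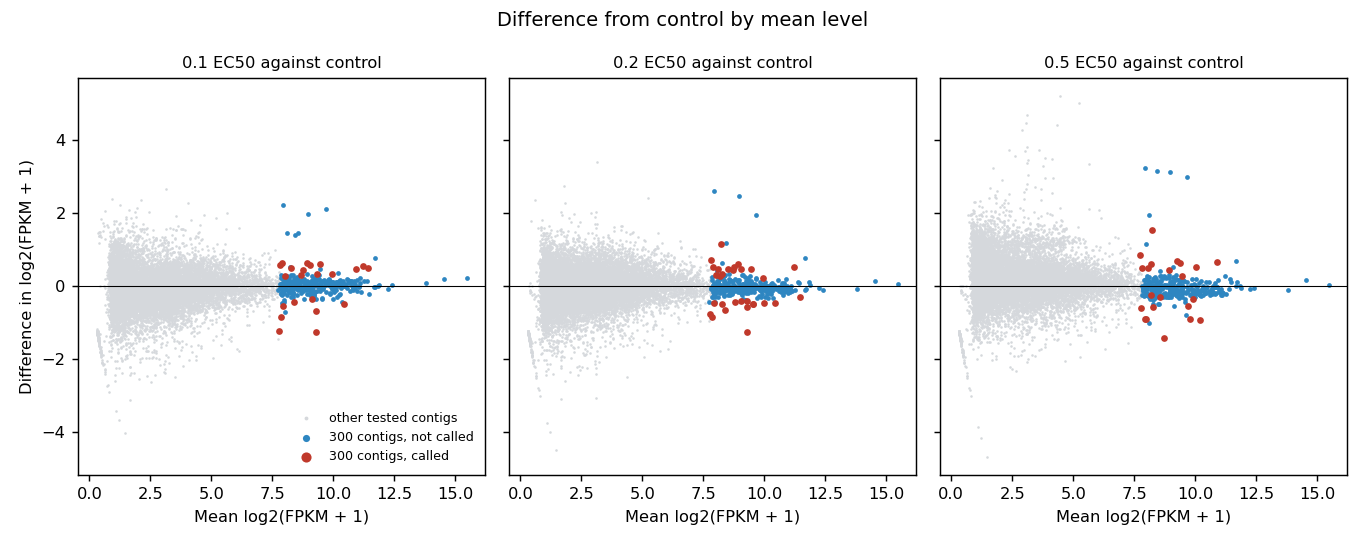
Difference from control in log2(FPKM + 1) against mean log2(FPKM + 1) over 12 libraries, in a panel for each dose; grey points are other tested contigs, blue points are the 300 contigs that were not called and red points those that were. The 300 lie at the right of each panel, most of them close to 0, with 22, 30 and 22 of them called from the lowest dose to the highest and a few uncalled points far above.

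At 0.2 EC50, 30 of the 300 contigs were called (10.0%), 15 higher and 15 lower, where all tested contigs gave 10.4%, with 5.68% higher and 4.73% lower. The median log2 difference was -0.05 for the 300 and -0.02 for all contigs. Values did not overlap for 59 of the 300 contigs, or 19.7%, against 29.7% of all tested contigs. The median absolute log2 difference of the called contigs was 0.48.

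TRINITY_DN4062_c0_g1_i1_3, at rank 115, fell most. It had 955, 1039.8 and 921 FPKM in the controls, 360.1, 408 and 453 FPKM at 0.2 EC50 and 836, 1114 and 1070.2 FPKM at 0.5 EC50. The log2 difference from control was -1.26 ± 0.13 at 0.2 EC50 (SE, limma, adjusted p = 0.000643) and 0.04 at 0.5 EC50 (adjusted p = 0.863). The deposited table holds 3 contigs of its Trinity gene, grouped whatever their last number. Its own part of their summed level ranged from 65.8% to 89.3% over the libraries. TRINITY_DN4621_c0_g1_i2_1, at rank 285, fell from 352, 278 and 325 FPKM in the controls to 179, 172 and 174 FPKM at 0.2 EC50 (log2 difference -0.85 ± 0.132, SE, limma, adjusted p = 0.00337). At 0.5 EC50 it had 309, 300.1 and 274 FPKM, within the range of the controls except for replicate 3.

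TRINITY_DN855_c0_g1_i3_4, described above, rose most among the called contigs at this dose too, and without the 4 libraries that stood apart its call at 0.2 EC50 ended (log2 difference 1.09, adjusted p = 0.0511). TRINITY_DN4776_c0_g1_i1_1, at rank 300, had 157, 174 and 159 FPKM in the controls and 279, 291 and 244 FPKM at 0.2 EC50 (log2 difference 0.72 ± 0.0844, SE, limma, adjusted p = 0.00094). At 0.1 EC50 it had 246, 254 and 227 FPKM and at 0.5 EC50 221, 233 and 235 FPKM, and every exposed library lay above every control. Its log2 differences there were 0.56 (adjusted p = 0.00304) and 0.49 (adjusted p = 0.00883), the latter not called after median-of-ratios scaling (0.32, adjusted p = 0.17).

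The contigs at ranks 105 and 106, singled out after their values were seen, had near-equal levels in all 12 libraries although they belong to different Trinity genes. The first had 819, 896 and 813 FPKM in the controls and 544, 693 and 558 FPKM at 0.2 EC50, and the second 824, 896 and 796 FPKM and 540.2, 685 and 581 FPKM. Their log2 differences were -0.50 and -0.48 (limma, adjusted p = 0.0182 and 0.0162), and neither was called after median-of-ratios scaling (adjusted p = 0.0866 and 0.0792). The most abundant called contigs were at rank 11, which fell from a mean of 3042 to 2481 FPKM (log2 difference -0.30, limma, adjusted p = 0.0332; 0.202 after median-of-ratios scaling), and at rank 15, which rose from 1949, 1857 and 1768 FPKM to 2942, 2837 and 2312 FPKM (log2 difference 0.53, adjusted p = 0.00473).

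The split at this dose was 12 higher and 6 lower after median-of-ratios scaling, 11 and 22 with equal totals and 12 and 22 after quantile normalization. In the same order these scalings called 10.0%, 9.82% and 10.3% of all contigs. As background to the totals that follow, 6.81% of all contigs were called without control replicate 2 and 5.61% without control replicate 3. The figures were 5.58% without 0.2 EC50 replicate 1 and 7.51% without 0.2 EC50 replicate 3, against 10.4% in the full fit. The total was 10 without the 4 libraries that stood apart (2.91% of all contigs called) and 19 without the prior trend (9.59%), and without control replicate 2, control replicate 3, 0.2 EC50 replicate 1 or 0.2 EC50 replicate 3 it was 17, 16, 16 and 19.

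At 0.1 EC50, 22 of the 300 contigs were called (7.33%), 14 higher and 8 lower, where all tested contigs gave 9.68%, with 2.64% higher and 7.03% lower. The median log2 difference was 0.03 for the 300 and -0.09 for all contigs. Values did not overlap for 82 of the 300 contigs, or 27.3%, against 28.6% of all tested contigs. The median absolute log2 difference of the called contigs was 0.52.

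TRINITY_DN4062_c0_g1_i1_3 fell most here as well, to 449, 400.0 and 357 FPKM (log2 difference -1.28 ± 0.13, SE, limma, adjusted p = 0.00047). TRINITY_DN2063_c0_g1_i3_2, at rank 297, fell from 360.3, 321 and 342 FPKM in the controls to 152, 129 and 151 FPKM (log2 difference -1.24 ± 0.103, SE, limma, adjusted p = 0.000315). It had 178, 221 and 205 FPKM at 0.2 EC50 and 210.4, 225 and 242 FPKM at 0.5 EC50, with log2 differences from control of -0.76 (adjusted p = 0.00169) and -0.59 (adjusted p = 0.0089). Its exposed libraries all lay below every control, and its means rose with the dose among the exposed groups.

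TRINITY_DN1424_c0_g2_i8_3, at rank 173, rose most among the contigs called at 0.1 EC50 and had a narrow spread. It had 374, 358 and 346 FPKM in the controls, 553, 564 and 567 FPKM at 0.1 EC50, 562, 544 and 542 FPKM at 0.2 EC50 and 509, 494 and 472 FPKM at 0.5 EC50. No exposed library overlapped a control, and the log2 differences were 0.64 ± 0.0609 at 0.1 EC50 (SE, limma, adjusted p = 0.00034), 0.61 at 0.2 EC50 (adjusted p = 6.00e-04) and 0.45 at 0.5 EC50 (adjusted p = 0.00286). The last of these calls ended after median-of-ratios scaling (0.29, adjusted p = 0.107). TRINITY_DN885_c0_g1_i2_1, at rank 286, had 202, 180.3 and 179 FPKM in the controls and 266, 310.5 and 297 FPKM at 0.1 EC50 (log2 difference 0.63 ± 0.113, SE, limma, adjusted p = 0.00668). At 0.5 EC50 its values of 240.3, 189 and 206 FPKM overlapped the controls.

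Among the more abundant contigs, the one at rank 12 rose at 0.1 EC50 from 2589, 2302 and 2357 FPKM in the controls to 3381, 3369.6 and 3505 FPKM (log2 difference 0.50, limma, adjusted p = 0.00224). At 0.2 and 0.5 EC50 it had means of 2545 and 2741 FPKM (adjusted p = 0.576 and 0.126). Rank 15 rose to 2724, 2727 and 2640.3 FPKM (log2 difference 0.54, limma, adjusted p = 0.0046).

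At 0.1 EC50 the split was 20 higher and 4 lower after median-of-ratios scaling, 13 and 19 with equal totals and 11 and 20 after quantile normalization. In the same order these scalings called 9.08%, 8.68% and 8.30% of all contigs. Without the 4 libraries that stood apart 1 contig was called, at rank 297 (1.05% of all contigs called), and the calls of the contigs at ranks 115, 173 and 286 ended with log2 differences of -1.06, 0.62 and 0.48.

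**Figure D4:**
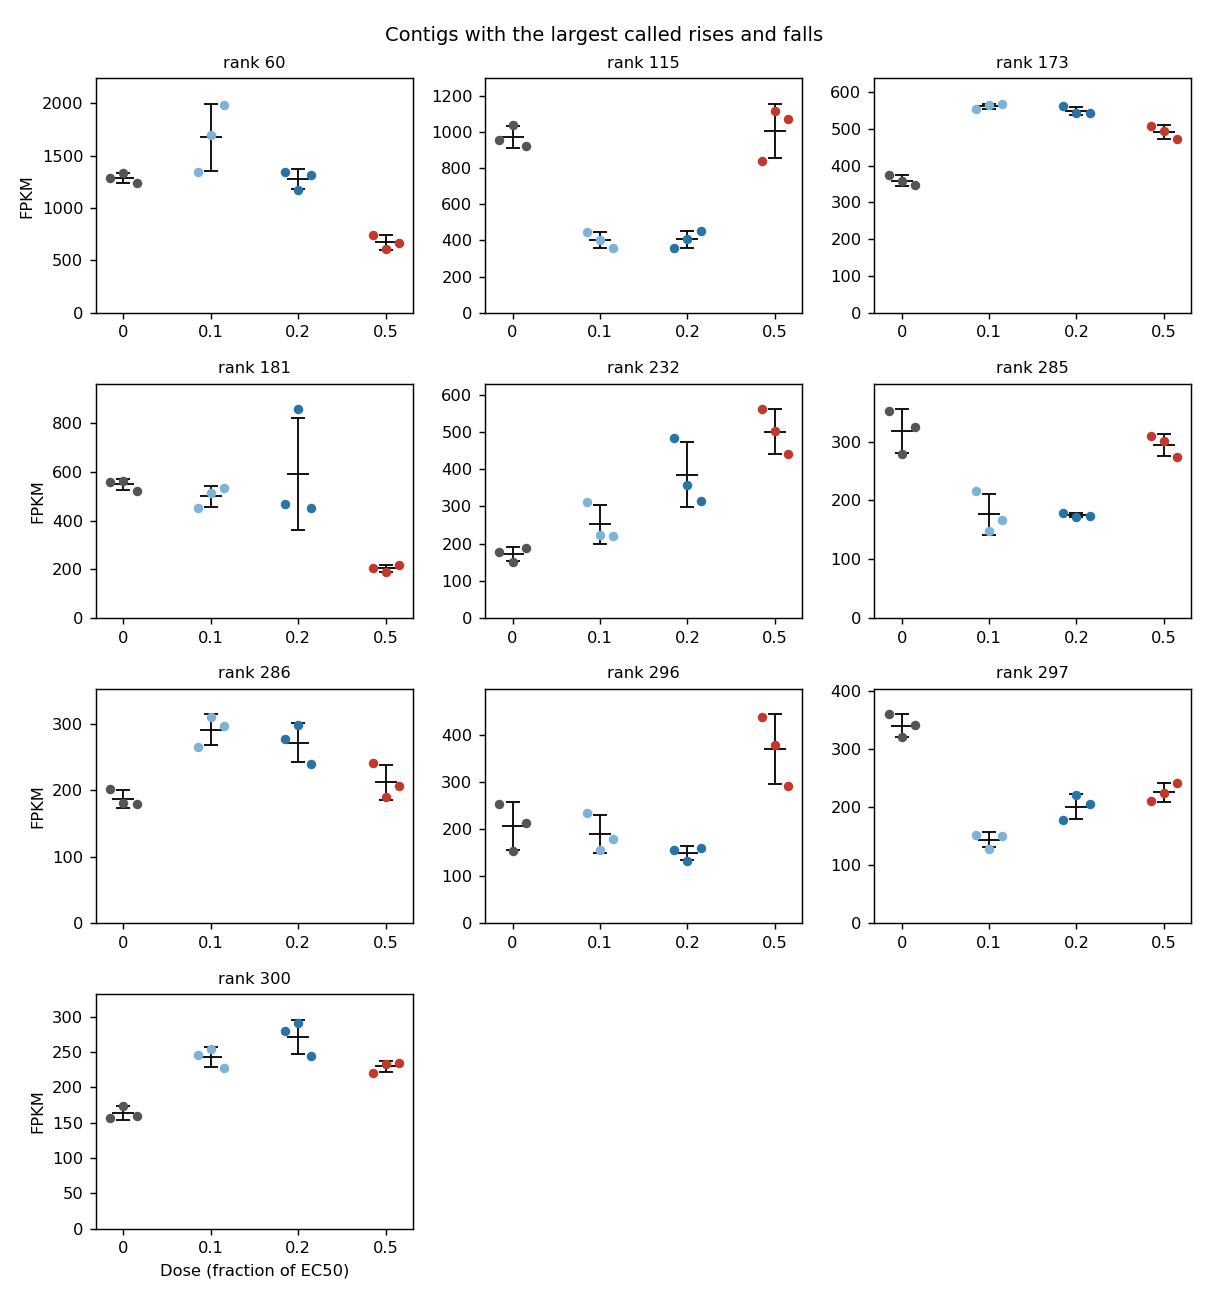
FPKM against dose for 10 contigs, which are those with the 2 largest rises and the 2 largest falls at each dose among contigs called against control whose values did not overlap; points are single libraries, and bars show the mean and SD of 3 libraries. The contig at rank 232 has its means in the order of the doses, those at ranks 115 and 285 are low at 0.1 and 0.2 EC50 and stand near control at 0.5 EC50, and those at ranks 60 and 181 are low at 0.5 EC50.

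The doses were compared with each other in the same fit. Between 0.5 and 0.2 EC50, 41 of the 300 contigs were called (13.7%), 28 higher and 13 lower at 0.5 EC50, where all tested contigs gave 6.8%, with 5.56% higher and 1.24% lower. Between 0.5 and 0.1 EC50, 61 were called (20.3%), 36 higher and 25 lower, against 19.2% of all tested contigs, with 16.8% higher and 2.46% lower. The median log2 difference of the 300 was -0.07 and -0.12 in these comparisons, and that of all contigs 0.14 and 0.25. Without 0.5 EC50 replicate 1 the medians of the 300 were 0.03 and -0.05, and those of all contigs 0.14 and 0.25. The 300 lay below all contigs by -0.21 and -0.37 as deposited, and by -0.01 and -0.06 after quantile normalization. The offsets were -0.24 and -0.44 after median-of-ratios scaling and -0.22 and -0.37 with equal totals. Quantile normalization gives every library the same distribution of values, which leaves little room for an offset of the most abundant contigs. Values did not overlap for 70 of the 300 contigs (23.3%) between 0.5 and 0.2 EC50, against 30.2% of all tested contigs, and for 101 (33.7%) between 0.5 and 0.1 EC50, against 39.5%. Both comparisons share the libraries at 0.5 EC50. With a minimum mean of 5 FPKM, 47 of the 300 were called between 0.5 and 0.2 EC50, against 11.6% of all contigs then tested. Between 0.5 and 0.1 EC50 that setting gave 65 of the 300, against 24.8%.

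Rank 115 had a log2 difference of 1.30 ± 0.13 between 0.5 and 0.2 EC50 (SE, limma, adjusted p = 0.000915) and of 1.32 between 0.5 and 0.1 EC50 (adjusted p = 0.000288), higher at 0.5 EC50 in both. Rank 296 was higher by 1.29 (adjusted p = 0.00696) and 0.96 (adjusted p = 0.0134), and that at rank 285 by 0.75 (adjusted p = 0.0101) and 0.75 (adjusted p = 0.00492). Rank 181 was lower at 0.5 EC50, with log2 differences of -1.47 (adjusted p = 0.00322) from 0.2 EC50 and -1.28 (adjusted p = 0.00291) from 0.1 EC50. Rank 60 was lower too, at -0.92 (adjusted p = 0.00366) and -1.30 (adjusted p = 0.000339). Rank 232 was higher at 0.5 than at 0.1 EC50 by 1.00 (adjusted p = 0.00569), while its difference of 0.39 from 0.2 EC50 was not called (adjusted p = 0.212).

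These splits turned under 1 of the 3 other scalings. After median-of-ratios scaling the split was 4 higher and 20 lower for 0.5 against 0.2 EC50 and 2 higher and 70 lower for 0.5 against 0.1 EC50. Equal totals gave 28 and 15 in the first comparison and 38 and 27 in the second, and quantile normalization 34 and 16, and 42 and 18. Median-of-ratios scaling, equal totals and quantile normalization called 5.21%, 4.64% and 5.99% of all contigs in the first comparison. In the second they called 11.9%, 15.2% and 9.65%. The directions given for the contigs at ranks 60, 115, 181, 232, 285 and 296 were the same under median-of-ratios scaling, which ended the calls against 0.1 EC50 at ranks 285 (0.44, adjusted p = 0.0662) and 296 (0.64, adjusted p = 0.0634). For 0.5 against 0.2 EC50 the total was 20 without the 4 libraries that stood apart (1.36% of all contigs called), 24 without the prior trend (5.98%) and 10 in a fit of these 2 groups only (2.14%). Leaving out 0.5 EC50 replicate 2 gave 19 (2.63% of all contigs called) and 0.5 EC50 replicate 3 gave 18 (2.29%). Leaving out 0.2 EC50 replicate 1 gave 22 (3.41%) and 0.2 EC50 replicate 3 gave 27 (4.45%). For 0.5 against 0.1 EC50, 9.74% and 9.61% of all contigs were called without 0.5 EC50 replicates 2 and 3. Without 0.1 EC50 replicates 2 and 3 the figures were 7.87% and 9.33%. For 0.5 against 0.1 EC50 the total was 3 without the 4 libraries (0.519% of all contigs called, down from 19.2%) and 40 in a fit of these 2 groups only (14.2%), while leaving out 0.5 EC50 replicate 2 gave 31, 0.5 EC50 replicate 3 gave 33, 0.1 EC50 replicate 2 gave 38 and 0.1 EC50 replicate 3 gave 31.

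Between 0.2 and 0.1 EC50, 0 of the 300 contigs were called by limma, with or without the 4 libraries that stood apart, and 15 had an unadjusted p under 0.05 in the full fit. Among all tested contigs 0% were called and 2315 had an unadjusted p under 0.05. Values did not overlap for 18 of the 300 contigs (6.00%), against 18% of all tested contigs. Any difference among the 4 groups was called for 62 of the 300 contigs (20.7%), against 20.3% of all tested contigs. Fewer of the 300 were called without the 4 libraries that stood apart, a setting with no figure over all contigs for this test.

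The contigs with the widest ranges among the 300 varied widely between libraries of the same group. At rank 179 a contig had 0.785, 706 and 178 FPKM in the controls, 154, 867 and 168 FPKM at 0.1 EC50, 117, 361 and 1180 FPKM at 0.2 EC50 and 849, 719 and 314 FPKM at 0.5 EC50. At rank 85 a contig had 6.32, 1036 and 312 FPKM in the controls, 240.4, 2079 and 282 FPKM at 0.1 EC50, 208, 722 and 2745 FPKM at 0.2 EC50 and 1706, 1659 and 555 FPKM at 0.5 EC50. In both contigs control replicate 1 was the lowest library, and 0.1 EC50 replicate 2 and 0.2 EC50 replicate 3 were the highest of their groups.

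At rank 133 the level ranged from 21.5 FPKM in control replicate 1 to 1628 FPKM in 0.5 EC50 replicate 1. At rank 42 it ranged from 15.2 FPKM in control replicate 1 to 3562 FPKM in control replicate 2. These 4 contigs had positive log2 differences at 0.5 EC50, of 3.25 ± 1.80 (rank 179), 3.12 ± 1.63 (rank 85), 3.15 ± 1.23 (rank 133) and 3.00 ± 1.66 (rank 42; SE). None was called (limma, adjusted p = 0.263, 0.236, 0.129 and 0.262), and the control values overlapped those at 0.5 EC50 at ranks 42, 85 and 179 but not at rank 133. The contigs at ranks 165 and 217 also ranged more than 10-fold, from 80.9 to 1485 FPKM and from 63.7 to 667 FPKM, and both were lowest in control replicate 2. At rank 217 the values at 0.5 EC50 lay above all controls without a call (log2 difference 1.94 ± 0.617, SE, limma, adjusted p = 0.0733).

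**Figure D5:**
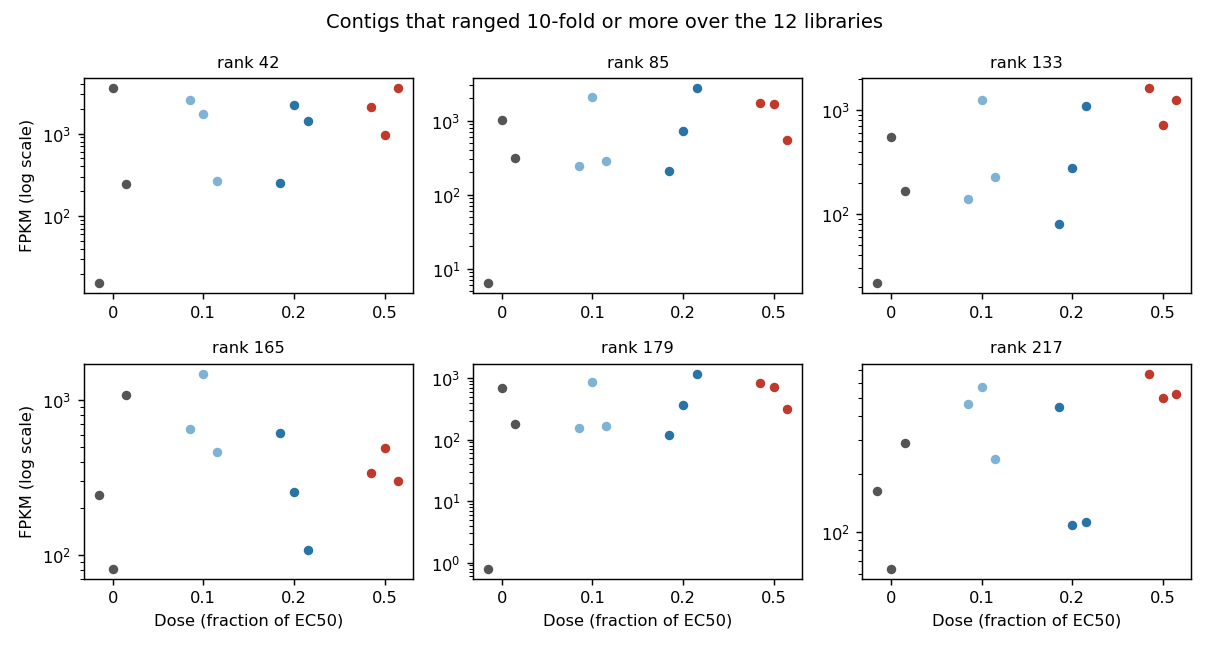
FPKM on a log scale against dose for the 6 contigs whose highest library was at least 10 times their lowest; each point is a library. Libraries of the same dose lie far apart, and control replicate 1, the left point at dose 0, is the lowest point at ranks 42, 85, 133 and 179.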

How the data were processed

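The deposited table holds FPKM for 29140 contigs in 12 columns, 1 per library, and the unit is known from the table's name. Libraries were made from total RNA with Illumina TruSeq chemistry, per the labels' protocols. How the contigs were assembled, how reads were assigned to them and whether rows were filtered are points that the sources used here do not give. FPKM divides by contig length and library total, so a contig's value moves with all others in its library. Depth in reads is unknown, and no counting interval is given.

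Titles gave the dose group. The log2(FPKM + 1) values of the 16732 contigs that averaged 1 FPKM or more entered 1 fit of 4 groups with 8 residual degrees of freedom (limma 3.58.1, R 4.3.3), whose prior variance follows the mean level. Tests are two-sided, with Benjamini-Hochberg adjustment over all contigs tested. The pseudocount makes fold changes of low contigs too small and hardly touches these 300. Shares are percentages of summed FPKM computed from the deposited values. Figures were drawn with matplotlib 3.10.9.

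The 300 contigs and the tests were chosen with earlier results of these data known. Identifiers are given for ranks 1 to 3 and, at each dose against control, for the 2 largest rises and the 2 largest falls among called contigs without overlap; other contigs are given by rank. Gene lists could not be used, since the table has no gene names.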

Additional observations from a re-analysis of the deposited data

Results flagged for a closer look

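Differences between doses in a direct test drew attention to these comparisons. Between 0.5 and 0.2 EC50, 41 of the 300 contigs (13.7%) differed in limma's test, against 6.8% of all tested contigs. With a minimum mean of 5 FPKM the count was 47 against 11.6%, and in a fit of these 2 groups only 10 against 2.14%. Median-of-ratios scaling gave 24 against 5.21%, equal totals 43 against 4.64% and quantile normalization 50 against 5.99%. The split of 28 higher and 13 lower turned to 4 higher and 20 lower after median-of-ratios scaling. Between 0.5 and 0.1 EC50, 61 did (20.3%), which in the values as deposited was near the 19.2% of all tested contigs. This near match did not hold under the other scalings. Median-of-ratios scaling called 72 of the 300 against 11.9% of all contigs, equal totals 65 against 15.2% and quantile normalization 60 against 9.65%. The 300 did not exceed all contigs with a minimum mean of 5 FPKM (65 against 24.8%) or in a fit of these 2 groups only (40 against 14.2%). As an example, the contig at rank 115 differed in both comparisons. Against control it had log2 differences of -1.28 (0.1 EC50), -1.26 (0.2 EC50) and 0.04 (0.5 EC50).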

How the results depend on the processing

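Counts of called contigs among the 300 changed by more than 1.5 times under these settings. Median-of-ratios scaling gave 18 at 0.2 EC50 (control as reference; 10.0% of all contigs called) and 24 for 0.5 against 0.2 EC50 (5.21%). No prior trend gave 19 (9.59%) and 24 (5.98%) for the same comparisons. Fits of the 2 groups compared gave 14 at 0.5 EC50 (control as reference), 10 for 0.5 against 0.2 EC50 and 40 for 0.5 against 0.1 EC50. In the same order 5.66%, 2.14% and 14.2% of all contigs were called in these fits. Without the 4 libraries that stood apart the counts were 8, 10 and 1 at 0.5, 0.2 and 0.1 EC50 against control, 20 for 0.5 against 0.2 EC50, 3 for 0.5 against 0.1 EC50 and 19 for any difference; this setting removes 4 of 12 libraries, and in the same order 3.80%, 2.91%, 1.05%, 1.36% and 0.519% of all contigs were called in the comparisons of 2 groups. Leaving out each library in turn gave 11 to 24, 16 to 37 and 17 to 29 at 0.5, 0.2 and 0.1 EC50 against control, 18 to 42 for 0.5 against 0.2 EC50, 31 to 66 for 0.5 against 0.1 EC50, 0 throughout for 0.2 against 0.1 EC50 and 42 to 67 for any difference. All contigs were called at 2.66% to 11.1%, 5.58% to 11.7% and 4.76% to 10.7% in the fits against control. They were called at 2.29% to 7.14% for 0.5 against 0.2 EC50 and 7.87% to 21.7% for 0.5 against 0.1 EC50. For any difference only the full fit gives a figure for all contigs, 20.3%. Mean shares without a library of the group lay between 61.0% and 61.7% in the controls, 62.8% and 64.5% at 0.1 EC50, 60.2% and 62.7% at 0.2 EC50, and 58.7% and 60.0% at 0.5 EC50. All 7 counts stayed within 1.5 times with a minimum mean of 5 FPKM, without a filter, with 0.1 as pseudocount and under other choices of members. Ranking after equal totals chose the same 300 contigs, and ranking by median shared 297 with them.

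Whether replicate numbers pair the libraries was not settled by correlations of their deviations from group means. Of 18 same-numbered pairs across groups, 8 had a correlation over 0.1, with values from -0.25 to 0.29 and a median of 0.05. Other pairs had values from -0.44 to 0.46 and a median of -0.07. Of 12 libraries, 7 correlated best with their own number. With the replicate number as a block 38 contigs were called at 0.5 EC50 and 39 at 0.1 EC50 against control and 101 for 0.5 against 0.1 EC50, against 22, 22 and 61 without it. All contigs were then called at 14%, 12.8% and 24.1%, and the last split went from 36 higher and 25 lower to 43 higher and 58 lower.

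For the 12 rises and falls that gave a contig its identifier here, each at its own dose, 251 of 264 repeated tests kept the direction and the call, 13 kept the direction without a call and 0 turned. Calls of these contigs at other doses are outside this count. The 12 were chosen as called without overlap, so leaving out libraries could not turn their direction. Another filter, no prior trend, the block or a fit of 2 groups left the difference itself unchanged. Of the 13 tests without a call, 9 concerned the contig at rank 296. The cause of these changes was not tested, and without read depth the counting error of each value is unknown.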

Other observations

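Of the 1294 contigs set aside, 1 would have ranked among the 300. It had a mean of 345 FPKM, of which 99.8% lay in control replicate 2, at 4131 FPKM, and its next highest library stood at 4.10 FPKM.

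Several contigs outside those named by identifier had levels that followed each other across libraries, and they were singled out after their values were seen. The contigs at ranks 136 and 137 had 623, 691 and 626 FPKM and 597, 690.0 and 601 FPKM in the controls, and 604, 810.2 and 822 FPKM and 683, 807 and 840.2 FPKM at 0.5 EC50. The contigs at ranks 96 and 138 were both low in replicate 2 of 0.1 and 0.2 EC50, with 553 and 476 FPKM for the first and 487 and 391 FPKM for the second, against 968 to 1403 FPKM and 638 to 1003 FPKM in the other libraries of these doses.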
